A study of Danio rerio with 6 samples.

Results

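Cells of an epithelium hold to each other through several kinds of junction, and the genes that build them were examined here as a set in zebrafish embryos expressing the human oncogene EWS-FLI1. The set holds every probe set whose annotation gives exactly 1 gene symbol of the cadherin, protocadherin, catenin, claudin, occludin, tight junction protein (tjp), connexin, desmocollin, desmoplakin, plakoglobin or plakophilin families, or epcam. Membership follows from the gene symbol and uses no measured value, but these families were picked for description with earlier results of the same arrays known. The set contains 88 of the 15502 probe sets tested and 70 of the 8793 genes measured.

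In an adherens junction, cadherins of neighbouring cells bind each other outside the membrane, and catenins tie them to actin inside. Desmosomes join keratin filaments across cells in the same way, through desmosomal cadherins, plakoglobin, plakophilins and desmoplakin. Tight junctions, built from claudins and occludin on a scaffold of ZO proteins, close the space between cells. Gap junctions are channels of connexins through which small molecules pass from cell to cell. In the gastrulating zebrafish embryo, E-cadherin adhesion is needed for the spreading of the blastoderm over the yolk. An outer epithelium, the enveloping layer, seals the embryo with tight junctions.

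The arrays compared 3 samples of wild-type AB embryos with 3 samples of Tg(HSP:EWS-FLI1) embryos, in which a heat shock promoter, active throughout the body and not in 1 cell type, drives the human fusion gene of Ewing sarcoma. At the stage of 50% epiboly all embryos received a heat shock of 30 min at 39 °C, followed by 2 h at 28.5 °C before collection. The controls thus had the heat shock but no transgene, and transgene and line background cannot be told apart. Each sample was a pool of 40 whole embryos, and the parents, the clutches and the fusion's own expression were not examined. Replicate spread, and with it every p-value, is that between pools. In whole embryos, fewer cells of a type and less RNA per cell cannot be told apart.

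Values are log2 RMA values, and a difference is EWS-FLI1 minus control on that scale. Probe sets were tested with limma, and one was called, and is said to have risen or fallen, when its Benjamini-Hochberg adjusted p over all 15502 probe sets was under 0.05. A group mean at or below 4.23, the 95th percentile of 44 bacterial and tag control probe sets, is described as within background. The groups separated on the first principal component (66.5% of the variance). Between the 3' and 5' control probe sets of the array, the gap was 0.38 higher for GAPDH and differed by -0.32 for acta1 in EWS-FLI1 arrays (exact permutation p = 0.1 for each, the smallest that 3 against 3 arrays allow), and the part of RNA quality in the results below was not tested.

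Junction genes changed in both directions, without a common shift. Of the 88 probe sets, 5 rose, 12 fell and 71 were not called, which is 19.3% called against 11.8% of all probe sets tested. The shares among all probe sets were 5.38% rising and 6.46% falling. The median difference was 0.00, and the values ran from -1.87 for the claudin gene cldn3d to 1.83 for the claudin gene cldn11b. The median absolute difference was 0.158, against 0.123 for all probe sets. The 17 calls came from 16 genes, of which 5 rose and 11 fell. Taking only the brightest probe set of each gene, 15 of 70 genes were called (21.4%), 5 rising and 10 falling, against 12.8% of all genes, 5.65% rising and 7.12% falling.

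Of the 5 probe sets that rose, only that of cldn11b was above background in both groups. Of the 12 that fell, 11 were above background in both groups, the exception being cldn5a. Among all called probe sets, 567 of 834 that rose and 799 of 1001 that fell were above it in both groups. Among the 54 junction probe sets above background in both groups, 12 were called (22.2%), against 14.8% of all probe sets above it in both groups. The 2 groups of arrays did not overlap at 33 junction probe sets (37.5%), 14 higher and 19 lower, against 29.0% of all probe sets. These 33 comprise the 17 called and 16 that were not called. Among probe sets not called, the groups did not overlap at 16 of 71 in the junction set and at 2656 of 13667 on the whole array. Lack of overlap at an uncalled junction probe set was thus about as frequent as elsewhere. The groups did not overlap at any of the 1835 called probe sets of the whole array. A lack of overlap at a called probe set therefore adds nothing to its call. Without EWS-FLI1 replicate 1, the number of called junction probe sets fell to 10 (5 rose and 5 fell), or 11.4% against 5.7% of all probe sets. Without EWS-FLI1 replicate 3 it fell to 11, or 12.5% against 6.28% of all. The calls over all probe sets thus became fewer as well.

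**Figure D1:**
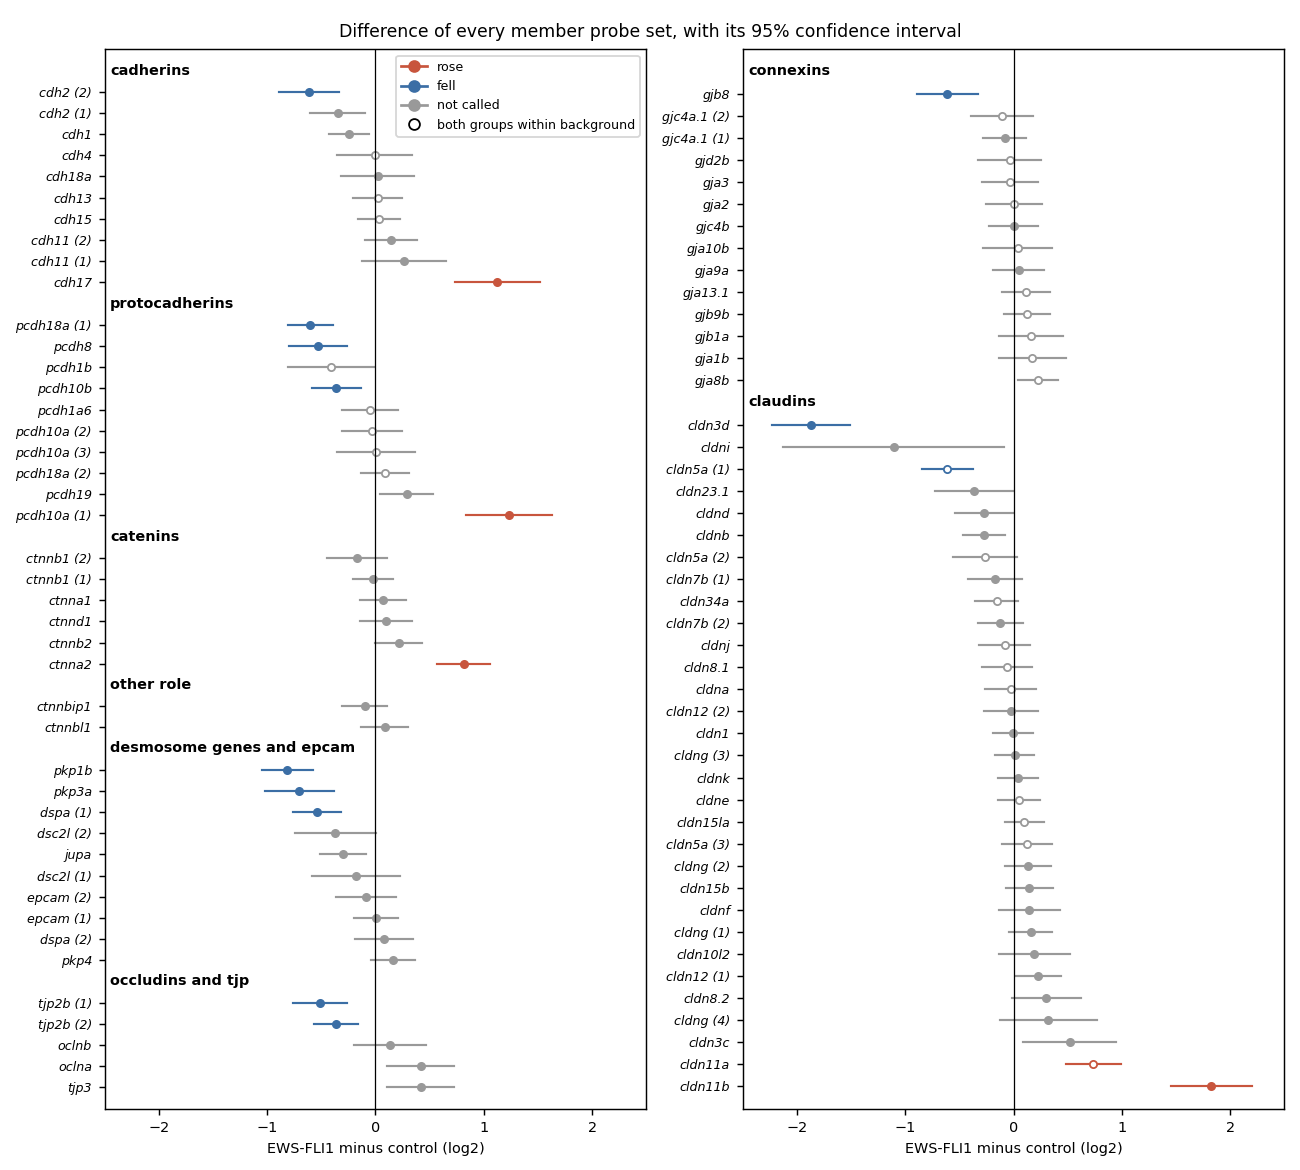
Differences (EWS-FLI1 minus control, log2) of all 88 junction probe sets by junction type, with 95% confidence intervals not adjusted for the number of probe sets. Red, blue and grey mark rose, fell and not called, filled and open points mark probe sets above background in at least 1 group and within background in both groups, and the numbers in parentheses order the probe sets of a gene from the brightest in controls. Most probe sets sit near 0, while cldn11b (1.83) and cldn3d (-1.87) lie farthest out.

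**Figure D2:**
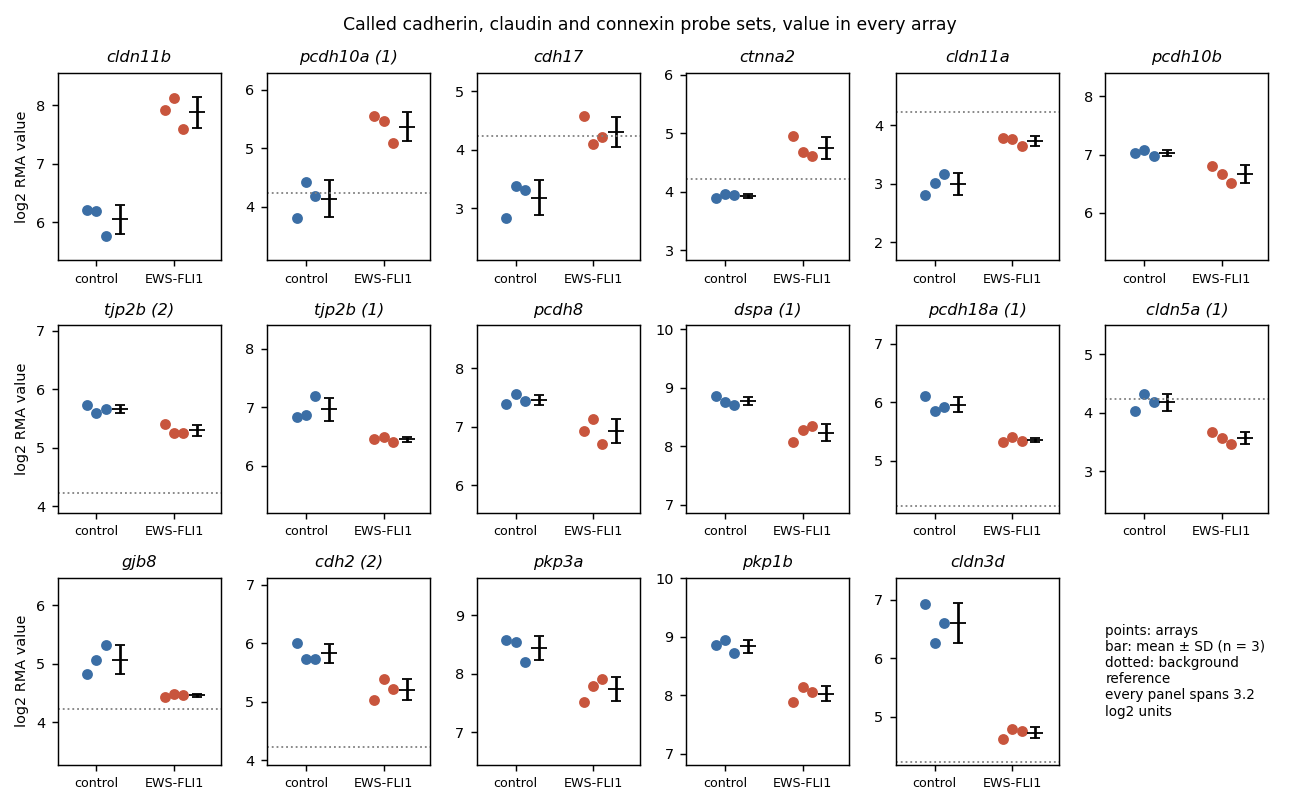
Log2 RMA value in each array for the 17 called junction probe sets, with bars for the mean ± SD of 3 arrays and a dotted line at the background reference of 4.23. Every panel spans the same number of log2 units. In each panel the 3 EWS-FLI1 arrays lie on 1 side of the 3 control arrays, as at every called probe set of the whole array.

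Of the 10 cadherin probe sets of 8 genes, 1 rose, 1 fell and 8 were not called (20.0% called, against 11.8% of all probe sets). cdh1 encodes E-cadherin, the main epithelial cadherin of the blastoderm. Its values were 8.71, 8.59 and 8.66 in controls and 8.39, 8.40 and 8.44 in EWS-FLI1 arrays. All 3 EWS-FLI1 arrays were below all 3 controls, but the difference of -0.24 (95% confidence interval -0.43 to -0.06) was not called (adjusted p = 0.0934). cdh2 encodes N-cadherin, which holds the neural plate and mesoderm together. Its dimmer probe set read 6.01, 5.73 and 5.73 in controls and 5.03, 5.38 and 5.21 in EWS-FLI1 arrays, without overlap. It fell by 0.62 (SE 0.12, adjusted p = 0.0125), and the call was lost without EWS-FLI1 replicate 1 (adjusted p = 0.0615) or 3 (adjusted p = 0.0545). The brighter cdh2 probe set read 10.19, 9.92 and 10.11 in controls and 9.57, 9.73 and 9.87 in EWS-FLI1 arrays. Here too the groups did not overlap, and the difference of -0.35 (95% confidence interval -0.60 to -0.10) was not called (adjusted p = 0.0813), although it was called without control replicate 2 (adjusted p = 0.0367).

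The balance between the neural and the epithelial cadherin was also taken within each array, as the log2 value of the brighter cdh2 probe set minus that of cdh1. It was 1.48, 1.33 and 1.45 in controls and 1.18, 1.33 and 1.43 in EWS-FLI1 arrays. The groups overlapped, with means of 1.42 ± 0.08 and 1.31 ± 0.13 (SD, n = 3 each) and a difference of -0.11 (exact permutation p = 0.3, two-sided). With the mean of both cdh2 probe sets in place of the brighter one, the difference was -0.24 (exact permutation p = 0.1).

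One other cadherin changed. cdh17, whose mammalian counterpart is the liver-intestine cadherin, read 2.83, 3.38 and 3.31 in controls and 4.58, 4.09 and 4.22 in EWS-FLI1 arrays. It rose by 1.12 (SE 0.17, adjusted p = 0.00411), with all control arrays and 2 of 3 EWS-FLI1 arrays below the background reference, so the size of the rise depends on the background. The 6 cadherin probe sets besides those of cdh17, cdh1 and cdh2 belonged to cdh4, cdh11, cdh13, cdh15 and cdh18a. None of them was called, and their differences ran from -0.01 for cdh4 to 0.26 for the brighter cdh11 probe set. cdh4, cdh13 and cdh15 lay within background in both groups.

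Protocadherins, cadherin relatives that act in cell sorting and in cell movement more than in fixed junctions, had 4 calls among 10 probe sets of 7 genes, 1 upward and 3 downward (40.0% called, against 11.8% of all probe sets). pcdh8 encodes paraxial protocadherin, which in frog and fish acts in the convergence movements of the paraxial mesoderm. It read 7.38, 7.55 and 7.43 in controls and 6.93, 7.13 and 6.71 in EWS-FLI1 arrays. All EWS-FLI1 values were below all control values, and the probe set fell by 0.53 (SE 0.12, adjusted p = 0.021), and the call was lost without EWS-FLI1 replicate 1 (adjusted p = 0.0828) or 3 (adjusted p = 0.0786). Of 8 measured mesoderm marker genes 4 fell and 1 rose (among all genes, 7.12% fell and 5.65% rose). The level of the marker list (mean log2 value over its genes) was 7.58 to 7.73 in control and 7.01 to 7.22 in EWS-FLI1 arrays, and 1 of the 8 lay within background in both groups. Its part in the fall of pcdh8 was not tested.

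pcdh18a and pcdh10a, which neighbour each other in the RefSeq order of protein-coding genes, moved in opposite directions at their brightest probe sets. pcdh18a read 6.10, 5.85 and 5.92 in controls and 5.33, 5.40 and 5.34 in EWS-FLI1 arrays. The EWS-FLI1 arrays were close together and below all controls, and the probe set fell by 0.60 (SE 0.09, adjusted p = 0.00427). pcdh10a read 3.81, 4.43 and 4.18 in controls and 5.56, 5.46 and 5.10 in EWS-FLI1 arrays. It rose by 1.23 (SE 0.17, adjusted p = 0.0028) from a control mean within background. pcdh10b, the paralogue, read 7.03, 7.07 and 6.97 in controls and 6.81, 6.67 and 6.51 in EWS-FLI1 arrays. It fell by 0.36 with an adjusted p of 0.0489, just inside the threshold, and the call was lost in 11 of 12 other settings, among them the omission of any 1 array (highest adjusted p = 0.184). pcdh19, which acts with N-cadherin in the zebrafish neural plate, differed by 0.29 (adjusted p = 0.132), with the groups not overlapping.

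The catenins that link cadherins to actin showed no call at the widely used members. The alpha-catenin gene ctnna1 differed by 0.07 (adjusted p = 0.729). ctnnd1, encoding p120-catenin, which holds cadherin at the membrane, differed by 0.10 (adjusted p = 0.664). ctnnb1 encodes beta-catenin, a junction protein and the effector of Wnt signalling. Its brighter probe set read 11.05, 10.97 and 10.99 in controls and 10.93, 10.97 and 11.04 in EWS-FLI1 arrays, overlapping throughout, with a difference of -0.02 (95% confidence interval -0.21 to 0.16, adjusted p = 0.914). Its dimmer probe set read 10.44, 10.04 and 10.24 in controls and 9.92, 10.16 and 10.13 in EWS-FLI1 arrays, with a difference of -0.17 (95% confidence interval -0.45 to 0.11, adjusted p = 0.465). The groups overlapped there as well. The second beta-catenin gene, ctnnb2, differed by 0.21 without being called (adjusted p = 0.207), with the groups not overlapping.

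The single catenin call, 1 of 6 probe sets, was upward (16.7% called, against 11.8% of all probe sets, with 5.38% of all rising). ctnna2, the alpha-catenin of neurons in mammals, read 3.90, 3.96 and 3.95 in controls and 4.96, 4.68 and 4.61 in EWS-FLI1 arrays. It rose by 0.81 (SE 0.11, adjusted p = 0.00199), with every control array below the background reference and every EWS-FLI1 array above it. Of 12 measured neural ectoderm markers 10 fell and 1 rose (7.12% and 5.65% of all genes), and their mean log2 level was 8.15 to 8.34 in controls and 7.40 to 7.60 in EWS-FLI1 arrays, with none within background in both groups. The largest differences were the falls of pax6a (-1.74, adjusted p = 0.0172), rx3 (-1.33, adjusted p = 0.00154) and her3 (-1.16, adjusted p = 0.000921). For pax6a, the call was lost when any 1 EWS-FLI1 array was left out (highest adjusted p = 0.0724). The marker that rose was neurog1 (0.97, adjusted p = 0.0188). It lost the call without control replicate 1 or EWS-FLI1 replicate 1 (highest adjusted p = 0.0673). The part of these markers in the rise of ctnna2 was not tested. A pair of genes that share the catenin prefix act elsewhere. ctnnbip1, an inhibitor of the binding of beta-catenin to TCF, differed by -0.10 (adjusted p = 0.587), and ctnnbl1, a protein associated with the splicing machinery, by 0.08 (adjusted p = 0.684).

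Among the desmosome genes, 3 of 7 genes counted with epcam fell and none rose. These were 3 of 10 probe sets (30.0% called, against 11.8% of all probe sets, with 6.46% of all falling), and all 10 were above background in both groups. Of all 9213 probe sets above background in both groups, 14.8% were called and 799 fell, a nearer comparison. The median difference of the 10 was -0.24, against a median of 0.00 over all probe sets. pkp1b, a plakophilin gene, read 8.86, 8.94 and 8.72 in controls and 7.88, 8.14 and 8.06 in EWS-FLI1 arrays. Every EWS-FLI1 array was well below every control, and the probe set fell by 0.81 (SE 0.10, adjusted p = 0.00167). A second plakophilin gene, pkp3a, read 8.58, 8.55 and 8.20 in controls and 7.51, 7.79 and 7.92 in EWS-FLI1 arrays. It fell by 0.70 (SE 0.14, adjusted p = 0.0132) without overlap, and the call was lost without EWS-FLI1 replicate 1 (adjusted p = 0.0597). dspa encodes desmoplakin, which anchors keratin filaments to the plaque. Its brighter probe set read 8.85, 8.76 and 8.71 in controls and 8.08, 8.27 and 8.35 in EWS-FLI1 arrays, again without overlap, and the probe set fell by 0.54 (SE 0.10, adjusted p = 0.00879).

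The remaining desmosome genes were not called. jupa, encoding plakoglobin, differed by -0.30 (adjusted p = 0.0805) with no overlap of the groups, and was called without control replicate 2 (adjusted p = 0.0344). The desmocollin gene dsc2l differed by -0.18 (adjusted p = 0.617) at its brighter probe set. Its dimmer one differed by -0.37 (adjusted p = 0.205) and was called without control replicate 2 (adjusted p = 0.0344). pkp4, a plakophilin relative that also sits at adherens junctions, differed by 0.16 (adjusted p = 0.324).

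epcam encodes an adhesion molecule of epithelia that is needed in zebrafish for epithelial integrity during epiboly. Its brighter probe set read 10.89, 10.92 and 10.77 in controls and 10.81, 10.81 and 10.97 in EWS-FLI1 arrays. The groups overlapped, and the difference was 0.00 (95% confidence interval -0.20 to 0.21, adjusted p = 0.99). Its dimmer probe set differed by -0.09 (adjusted p = 0.752).

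Markers of the layers that carry desmosomes moved in part with these genes. Of 12 epidermal ectoderm markers, all above background in both groups, 6 fell and none rose, among them the epidermal master regulator tp63 (-1.33, adjusted p = 7.67e-05), dlx3b (-0.97, adjusted p = 0.00568) and tfap2a (-0.88, adjusted p = 0.00107). Among all genes 7.12% fell. The mean log2 level of the list was 8.40 to 8.67 in controls and 7.83 to 8.07 in EWS-FLI1 arrays. Of 17 enveloping layer markers, 4 fell, 2 rose and 11 were not called, with a median difference of -0.17 and 2 within background in both groups. Their mean log2 level was 8.33 to 8.45 in controls and 8.44 to 8.61 in EWS-FLI1 arrays. The keratin genes krt94 (3.86, adjusted p = 9.88e-06) and krt18b (2.51, adjusted p = 3.54e-05) rose from within background, while klf17, a transcription factor of that layer, fell (-0.78, adjusted p = 0.00247). krt94 and krt18b, the only 2 that rose, were also left out after their values were seen. That choice by itself lowers the EWS-FLI1 level against control, so no conclusion is drawn from the result. The level was then 8.96 to 9.10 in controls and 8.67 to 8.84 in EWS-FLI1 arrays. Of the 15 genes left, 13 had a difference below 0 (median -0.20), but only 4 were called. Falls were not particular to these layers (7.12% of all genes fell, 5.65% rose). Among 12 neural ectoderm markers 10 fell and 1 rose (median -0.77). Among 10 axial mesoderm and organizer markers 7 fell and 1 rose (median -0.80), and among 8 mesoderm markers 4 fell and 1 rose. Of 8 endoderm markers 3 fell, and of 14 yolk syncytial layer markers 2, with none rising. Of 9 blood and endothelium markers 5 rose, each from a control mean within background. The part of the epidermal and enveloping layers in the falls of pkp1b, pkp3a and dspa was not tested.

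Of the 5 occludin and ZO probe sets, 2 fell, both of tjp2b, and none rose (6.46% of all probe sets fell). All 5 were above background in both groups, where 799 of 9213 probe sets fell. tjp2b, encoding the scaffold protein ZO-2, was called at each of its probe sets. The brighter read 6.84, 6.87 and 7.19 in controls and 6.45, 6.50 and 6.41 in EWS-FLI1 arrays, and the probe set fell by 0.51 (SE 0.11, adjusted p = 0.0175). The dimmer read 5.74, 5.59 and 5.67 in controls and 5.41, 5.25 and 5.25 in EWS-FLI1 arrays, and the probe set fell by 0.36 (SE 0.09, adjusted p = 0.0318). Neither overlapped between groups, and both lost the call when any 1 EWS-FLI1 array was left out (highest adjusted p = 0.0801 and 0.131). The dimmer also lost it without control replicate 1 (adjusted p = 0.0907) or 3 (adjusted p = 0.0513).

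tjp3, encoding ZO-3, which zebrafish need for the barrier of the enveloping layer, was higher by 0.42 without being called (adjusted p = 0.0896). oclna, an occludin gene, was also higher by 0.42 without a call (adjusted p = 0.0903). Neither overlapped between groups. tjp3 was called without control replicate 2 (difference 0.53, adjusted p = 0.0269), and oclna without control replicate 1 (difference 0.57, adjusted p = 0.0166). The second occludin gene, oclnb, differed by 0.13 (adjusted p = 0.662). tjp1a, another ZO gene, is not among the measured members.

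Claudins, the strand proteins that set which ions pass a tight junction, were the largest family, with 31 probe sets of 24 genes. Of these, 2 rose, 2 fell and 27 were not called, and 10 lay within background in both groups. The share called, 12.9%, was near the 11.8% of all probe sets. The family also held both extremes of the junction set. cldn11b read 6.21, 6.19 and 5.77 in controls and 7.92, 8.13 and 7.60 in EWS-FLI1 arrays. Means were 6.06 ± 0.25 and 7.88 ± 0.27 (SD, n = 3 each), far apart beside the spread in either group, a rise of 1.83 (SE 0.16, adjusted p = 0.000281) or 3.55-fold. Its mammalian counterpart forms the tight junctions of myelin and of the testis.

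The paralogue cldn11a read 2.80, 3.01 and 3.17 in controls and 3.78, 3.77 and 3.64 in EWS-FLI1 arrays. It rose by 0.74 (SE 0.11, adjusted p = 0.00364), but all 6 values lay below the background reference, so its size is not interpretable as a level of transcript. Both cldn11 genes therefore had a called rise, of which that of cldn11b was above background in both groups.

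cldn3d read 6.93, 6.25 and 6.60 in controls and 4.62, 4.79 and 4.76 in EWS-FLI1 arrays. Means were 6.59 ± 0.34 and 4.72 ± 0.09 (SD, n = 3 each), without overlap, and the probe set fell by 1.87 (SE 0.16, adjusted p = 0.000214) to a level near the background reference. The mammalian claudin 3 is a sealing claudin of many epithelia. In the RefSeq order, cldn3d lies between cldn3c and cldnb. Neither neighbour was called. cldn3c differed by 0.52 (adjusted p = 0.128) and cldnb by -0.27 (adjusted p = 0.0798). cldn3c was called upward without control replicate 3 (difference 0.74, adjusted p = 0.00847).

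cldn5a, whose mammalian counterpart seals the blood-brain barrier, read 4.02, 4.32 and 4.18 in controls and 3.66, 3.57 and 3.46 in EWS-FLI1 arrays at its brightest probe set. It fell by 0.61 (SE 0.10, adjusted p = 0.00655), with both means within background. Of 9 blood and endothelium markers, 5 rose and none fell, where 5.65% of all genes rose. Their mean log2 level was 3.60 to 3.83 in controls and 4.47 to 4.59 in EWS-FLI1 arrays. Of the 9, 3 lay within background in both groups and only 1 above it in both groups. The 5 that rose each had a control mean within background. The part of these markers in the value of cldn5a was not tested.

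cldne, a claudin of the enveloping layer at these stages, read 4.15, 4.02 and 4.07 in controls and 4.08, 4.19 and 4.12 in EWS-FLI1 arrays. The groups overlapped within background (difference 0.05, 95% confidence interval -0.14 to 0.24, adjusted p = 0.795). Its neighbours in a row of claudin genes were not called either, with differences of -0.08 for cldnj, 0.15 for cldnf and -0.03 for cldna. The uncalled claudin with the largest difference was cldni, named after its values were seen. It read 4.26, 3.90 and 6.0 in controls and 3.55, 3.64 and 3.65 in EWS-FLI1 arrays. Control replicate 3 stood far above the others, and the difference of -1.11 had an SE of 0.45 (adjusted p = 0.167). It was called without control replicate 2 or without control replicate 3 (lowest adjusted p = 0.0354).

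Connexins gave 1 call among 14 probe sets of 13 genes, or 7.14% against 11.8% of all probe sets, and 10 of the 14 lay within background in both groups. gjb8, also known as cx30.3, read 4.83, 5.07 and 5.32 in controls and 4.43, 4.48 and 4.47 in EWS-FLI1 arrays. The EWS-FLI1 arrays were nearly equal and below every control, and the probe set fell by 0.61 (SE 0.12, adjusted p = 0.0139), and the call was lost when any 1 EWS-FLI1 array was left out (highest adjusted p = 0.068). Its neighbour gja3, a lens connexin in mammals, differed by -0.03 (adjusted p = 0.921) within background.

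A connexin gene far above background in both groups was not called. gjc4b, listed in RefSeq also as cx43.4, is a maternal and embryonic connexin of the zebrafish. It read 10.26, 10.15 and 9.98 in controls and 10.11, 10.07 and 10.22 in EWS-FLI1 arrays. The groups overlapped, with a difference of 0.00 (95% confidence interval -0.22 to 0.23, adjusted p = 0.99). The other 13 connexin probe sets beside gjb8, gjc4b included, differed by -0.11 to 0.23, among them gja1b, the connexin 43 gene (0.17, within background, adjusted p = 0.511), and gjd2b, a connexin of electrical synapses (-0.03, within background, adjusted p = 0.922).

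Several junction genes were read by more than 1 probe set, and these did not always give the same result. Of 14 such genes with 32 probe sets, 8 had no call, 1 (tjp2b) was called at all of its probe sets and 5 (cdh2, cldn5a, dspa, pcdh10a and pcdh18a) at some but not all. For pcdh10a, the brightest probe set rose by 1.23, while the others, within background in both groups, differed by -0.03 and 0.01. The gap between the brightest and the others widened by 1.27 and 1.23 in EWS-FLI1 arrays, without overlap of the groups (exact permutation p = 0.1 for each, the smallest possible). For pcdh18a, the dimmer probe set, also within background, differed by 0.09, and the gap between them changed by -0.69 (exact permutation p = 0.1). Differences of dim probe sets are compressed, so these gaps add little to the calls of the brightest probe sets.

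dspa and cldn5a showed the same kind of split. The dimmer dspa probe set had means of 4.44 in controls and 4.52 in EWS-FLI1 arrays, only a little above the background reference. It differed by 0.08 (adjusted p = 0.774) where the brighter fell by 0.54, so that the gap between them changed by -0.62 (exact permutation p = 0.1). The other cldn5a probe sets differed by -0.26 (adjusted p = 0.268) and 0.12 (adjusted p = 0.541), both within background. For cdh2 and tjp2b the probe sets moved the same way, and the gap between them differed by 0.27 (exact permutation p = 0.2) and -0.15 (exact permutation p = 0.4). A gap also changed without overlap in a gene with no call. Between the brightest cldng probe set and 1 dimmer one it changed by 0.15 (exact permutation p = 0.1). Every other gap in genes with no call overlapped between groups. The positions of the probe sets on the transcripts were not analysed here.

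**Figure D3:**
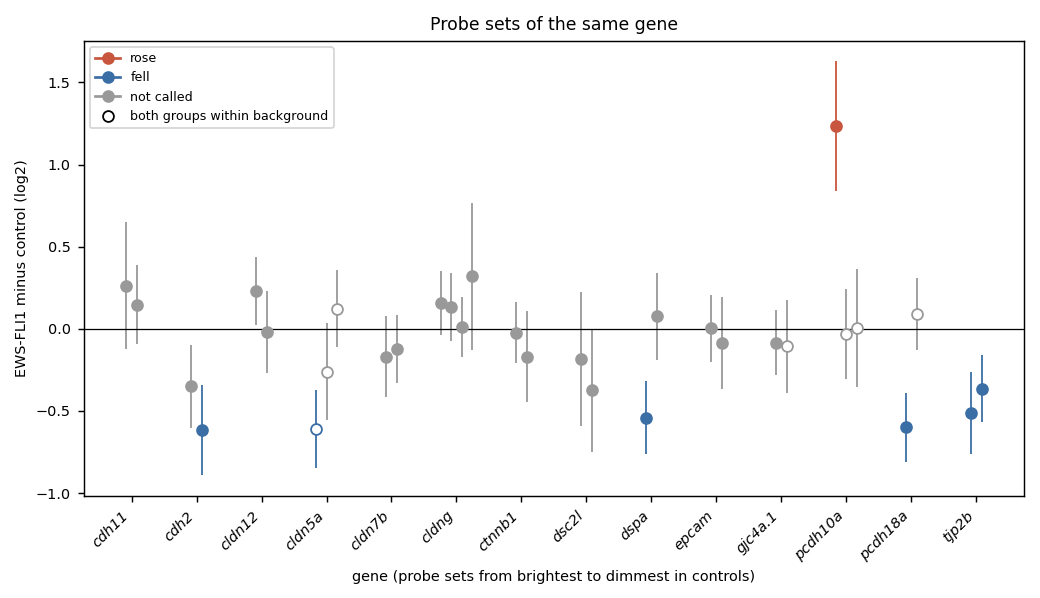
Differences (EWS-FLI1 minus control, log2) at each probe set of the 14 junction genes with more than 1 probe set, ordered from the brightest probe set of a gene. The 3 probe sets of pcdh10a are spread from -0.03 to 1.23, whereas both tjp2b probe sets lie below 0.

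Genes that work with junction proteins were set beside the members from lists of known partners, each gene by its brightest probe set, as in the share of all genes called (12.8%, with 5.65% rising and 7.12% falling). Of 10 measured adherens junction partners of 31 listed, 1 fell and none rose, with a median difference of -0.04. The gene that fell was nectin3b (-0.99, adjusted p = 0.00314), an immunoglobulin adhesion molecule that joins cadherins at adherens junctions. Of 18 tight junction partners and polarity genes of 44 listed, 1 rose and 1 fell, with a median of 0.08. cgnl1, encoding paracingulin, which links junctions to actin, rose by 0.82 (adjusted p = 0.0025). cxadr, a junctional adhesion protein also used as a virus receptor in mammals, fell by 0.67 (adjusted p = 0.0101) within background, and lost the call without EWS-FLI1 replicate 1 (adjusted p = 0.0575).

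In the list of desmosome and cornified partners, 11 of 12 genes were measured, 1 rose and 3 fell, with a median of -0.10. krt4, krt5, krt8, krt18a.1, krt18b, evpla and ppl are also in the enveloping layer list, so the 2 lists are not independent. krt18b was the one that rose. evplb, encoding an envoplakin of the desmoplakin family, fell by 0.57 (adjusted p = 0.0061). Its paralogue evpla fell by 0.52 within background (adjusted p = 0.0437), and its call was lost without control replicate 1 or 2 or any 1 EWS-FLI1 array (highest adjusted p = 0.139). ppl fell by 0.41 (adjusted p = 0.0298) and lost its call in the same omissions (highest adjusted p = 0.132). Of the gap junction relatives, 2 of 4 pannexin genes were measured, both within background and not called.

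Of 27 listed transcription and splicing factors that repress or activate epithelial junction genes, 15 were measured. Among them 7 fell, none rose and 8 were not called, with a median of -0.27, where 7.12% of all genes fell. The falls included both sides of this control. tp63, an activator of epidermal genes, fell by 1.33 as given above. twist1a (-0.91, adjusted p = 0.00135) and snai2 (-0.81, adjusted p = 0.00355, EWS-FLI1 mean within background) belong to families that repress E-cadherin in mammals.

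**Figure D4:**
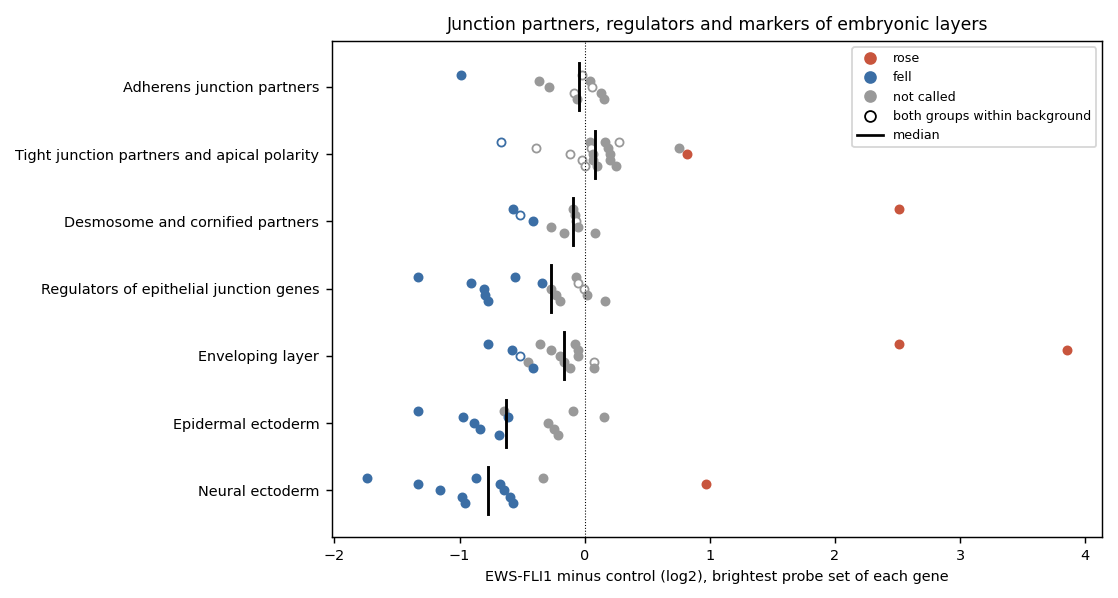
Differences (EWS-FLI1 minus control, log2) of the measured genes in 7 lists of junction partners, regulators and layer markers, 1 point per gene, with a bar at the median of each list. The medians of the adherens, tight and desmosome partner lists lie between -0.10 and 0.08, and that of the regulators at -0.27.

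The calls differed in how they held when the processing was varied. Of the 17 called junction probe sets, 10 were called in all 12 settings in which single probe sets were followed: cldn11b, cldn11a, cldn3d, cldn5a, pcdh10a, pcdh18a, cdh17, ctnna2, pkp1b and dspa. The other 7 lost the call in at least 1 of the 12 settings, and none of the 17 changed direction in them.

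**Figure D5:**
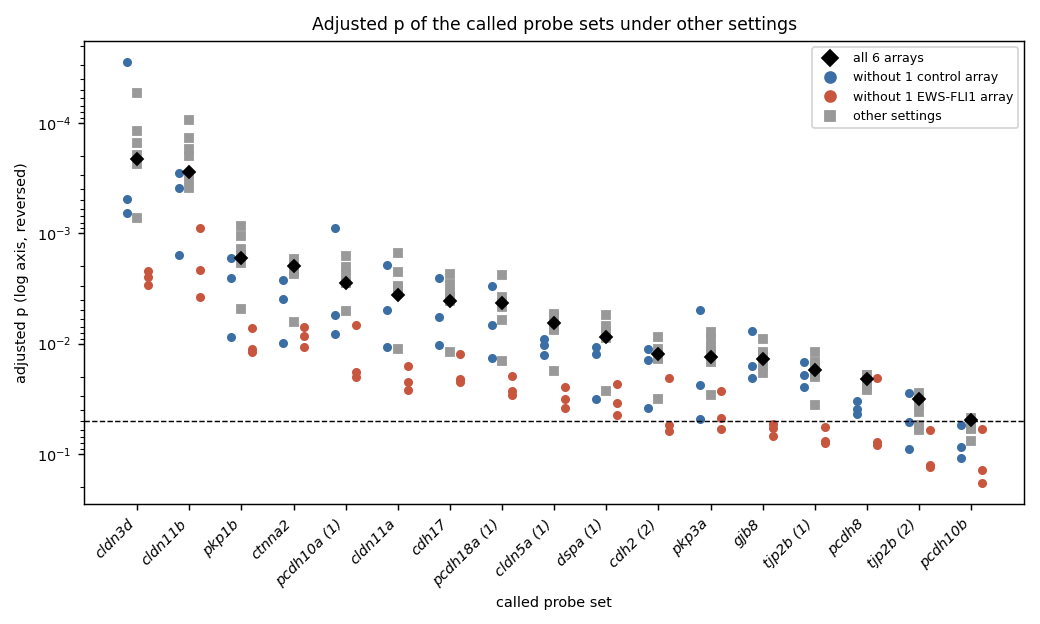
Adjusted p of the 17 called junction probe sets in the main fit and the 12 settings in which single probe sets were followed. The log axis is reversed, with a dashed line at the threshold of 0.05. The points of cldn3d and cldn11b lie farthest beyond the threshold, and those of pcdh10b gather around it, reaching 0.184.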

How the data were processed

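The deposited table holds 1 value per probe set and array. The authors computed them with RMA in affy (R 2.2.0), per the submitters' processing notes, and the deposited values were taken as log2 from their range, 1.58 to 13.46. RMA normalizes whole arrays to each other and compresses differences of dim probe sets. Per the labels' protocols, 2.5 µg of RNA was primed with oligo(dT), so transcripts were read mostly near their 3' ends.

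The 115 control probe sets of the manufacturer, of 15617 in all, were not tested. GEO's platform annotation gave 10795 of the 15502 tested 1 symbol, 135 several and 4572 none, and 10711 matched RefSeq genes (GRCz12tu, used for names and neighbours). A further 4 junction probe sets carrying several symbols were left out of the set. Array medians were 5.09 to 5.13. The number of arrays limits the precision.

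limma 3.58.1 in R 4.3.3 (lmFit, eBayes, two-sided, no block) fitted 2 group means, and adjusted p-values are limma's. Contrasts of single values used exact permutation tests. Every called junction probe set is named, with cdh1, cdh2, epcam, ctnnb1, cx43.4, cldne and tjp1a where measured, and up to 3 called genes per list. Beyond that limit of 3, neurog1 and ppl are named as well. The genes of the set and the lists were chosen with earlier results of these data known. Alternatives were other scalings, priors, weights, thresholds, filters, a replicate block and each array left out. The fit was tested on simulated data. Promoter motifs were not analysed here.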

Additional observations from a re-analysis of the deposited data

Results flagged for a closer look

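A probe set matched to 14 clustered protocadherin symbols of the pcdh1g group, and for that reason outside the junction set, fell by -1.10 (control mean 4.65, EWS-FLI1 mean 3.55 and within background, adjusted p = 0.00174), and kept its call when each array was left out. A probe set matched to 2 delta-catenin symbols, ctnnd2a and ctnnd2b, fell by -0.75 (from 5.97 to 5.22, adjusted p = 0.0263), and lost the call when any 1 EWS-FLI1 array was left out (highest adjusted p = 0.116). Both were taken up because they carry a signal outside the probe sets compared. Which of the genes gave the signal was not tested. The other such probe sets, of 11 pcdh2a-group symbols (-0.02, adjusted p = 0.931) and of a connexin pair (-0.06, adjusted p = 0.756), were not called.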

How the results depend on the processing

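Against 1835 called probe sets, 826 were called at an adjusted p under 0.01 and 488 with a minimum change of 0.3 (treat). For junction probe sets these counts were 10 (5 rose, 5 fell) and 6 (4 rose, 2 fell), against 17 (5 rose, 12 fell). Falls thus did not outnumber rises in either setting. The shares were 11.4% against 5.33% of all probe sets, and 6.82% against 3.15%. With each array left out in turn, 883 to 2309 of all probe sets and 10 to 21 junction probe sets were called, the fewest without EWS-FLI1 replicate 1 and the most without control replicate 2. With each array left out, cdh2 minus cdh1 differed by -0.17 to -0.04, and by -0.24 with the mean of each gene's probe sets (exact permutation p = 0.1). The other scalings, priors and weights gave 16 to 17 junction calls, or 18.2% to 19.3%, against 11.9% to 13.4% of all probe sets. The filter on dim probe sets gave 14 of the 57 junction probe sets it kept (24.6%), against 16.9% of all 9491 kept. The replicate block gave 15 (5 rose, 10 fell), or 17.0% against 10.2% of all probe sets. It lost pcdh10b (adjusted p = 0.0758) and the dimmer tjp2b probe set (adjusted p = 0.0602). The correlations of deviations of same-numbered samples were -0.08, -0.10 and -0.08, so the numbers were not taken as pairs. In at least 1 setting, 7 uncalled junction probe sets gained a call, namely those of tjp3, jupa, cldn3c, cldni and oclna, the dimmer of dsc2l and the brighter of cdh2. Apart from what the omission of an array changes in the number of samples, the cause of these changes was not tested. Values within background, 28 of the 88 junction probe sets in both groups, limit what can be seen of the connexins most.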
